A study of Rattus norvegicus with 72 samples.

Results

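Prg4, Ucma, Sox9, Acan and Col2a1 are genes of cartilage and of joint lubrication, and their transcripts were followed in the rat medial collateral ligament, which braces the knee on its medial side, on Agilent whole-genome arrays. The members are every probe of the deposited intensity table that its symbol, accession or gene identifier assigns to one of these 5 genes. This gave 7 of the 41012 distinct gene probes: 1 each for Prg4 (A_43_P14460), Ucma (A_44_P515798) and Acan (A_43_P12154), and 2 each for Sox9 (A_44_P102481, designed on an mRNA, and A_44_P510206, designed on an expressed sequence tag) and Col2a1 (A_43_P15252 and A_44_P442938). Some of the genes carried older names in the table, LOC289104 for Prg4, LOC291312 for Ucma and Agc1 for Acan.

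Prg4 encodes lubricin, the boundary lubricant glycoprotein that coats cartilage, tendon and ligament surfaces and is secreted by superficial chondrocytes and synovial lining cells. Ucma encodes a small secreted protein first described in the upper growth plate cartilage. SOX9 is the transcription factor that chondrocyte differentiation requires, and it drives the genes of the cartilage matrix, among them Acan, which encodes the large proteoglycan aggrecan, and Col2a1, which encodes the chain of type II collagen. In ligament, cartilage matrix genes are best known from the fibrocartilage at the bone insertions and from healing or degenerating tissue.

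All animals were adult male Sprague-Dawley rats, and no strain or genotype differed between groups. In the severed group the ligament was cut; in the sham group the operation was done on both knees and the ligament was left intact. Both operated groups received buprenorphine and isoflurane, and whole ligament was taken 1, 2, 4, 7, 10 or 14 days later. There were 5 columns of each kind on days 1, 2, 4, 10 and 14 and 3 on day 7, where the labels give 5 animals per group and day. The other groups were 5 unmanipulated ligaments, 5 columns of fibroblasts grown from ligaments, and a universal rat reference RNA measured 3 times in each dye. The fibroblasts were pooled from 8 collagenase-treated ligaments and carried through passages 3 to 7, so these 5 columns are serial passages of 1 culture. The p-values against them rest on a spread pooled over all groups, and do not cover variation between cultures. Injured specimens yielded more RNA, per the labels. The tissue is whole ligament, in which fewer cells of a type and less RNA per cell cannot be told apart.

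Each value is the intensity of 1 scanner channel, so depth is signal over background. Levels below are log2 of quantile-normalised intensity, differences are log2 differences with their standard error (SE), and a probe counts as above background where its deposited intensity exceeded the 95th percentile of the negative controls of its column. Median intensity ranged from 8 to 567 over the 70 columns that were used, and the number of arrays limits the precision. Severed day 4 replicate 4 and severed day 7 replicate 2 did not follow the other columns in over 80% of their spots and were left out. In 20 further columns, stretches that did not follow the other columns, called misread here, were set to missing. Why they did not follow was not tested. The 3 sham columns of day 7 were closer to each other than the repeat columns of the reference RNA and count as 1 sample. The robust SD of log2 differences over bright spots was 0.119 to 0.16 for them and 0.511 to 0.764 for the reference within a dye. Ligament markers identified the tissue: Tnmd, Thbs4 and Fmod stood 6.43, 9.30 and 7.25 above the reference RNA. Skeletal muscle genes were also bright, with 7 of 8 tested above the reference (median 7.60), against 31.5% of all probes in either direction.

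Severed and sham ligament of a day were labelled with different dyes, and only the reference RNA could correct for the dye. Within a day, dye and operation are therefore largely confounded, and the median SE of a single day was 0.72 to 0.77 (1.03 on day 7), against 0.29 for the mean of the 6 days. The dye cancels between columns of the same dye. These are sham days 1 and 4 and severed days 7, 10 and 14 against unmanipulated ligament, and severed day 2 as the column headers give its dye, which the labels contradict. For the members themselves, the reference RNA differed between Cy5 and Cy3 by -0.11 to 0.36. The reference channels may have been rescaled before deposit, so these differences and the dye term may not carry the full dye difference.

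The 10 columns named severed day 10 and sham day 10 ran against days 7 and 14 for 4 genes of matrix formation and turnover that were picked after their values had been seen. Postn, which encodes the healing matrix protein periostin, was higher in severed than in sham ligament by 2.71 ± 1.42 on day 7 and 3.13 ± 1.04 on day 14, and stood at -3.15 ± 1.00 on day 10. Cthrc1, whose product is secreted where collagen is laid down, stood at 1.80 ± 1.38, 3.34 ± 0.99 and -2.75 ± 0.97 in the same order of days, and Mmp13, a collagenase, at 4.48 ± 2.05, 2.56 ± 1.5 and -4.73 ± 1.5. Col5a2, a chain of type V collagen, stood at 2.09 ± 0.82, 2.77 ± 0.58 and -0.53 ± 0.58, the last within 1 SE of 0. None of these differences passed the threshold (limma, lowest adjusted p = 0.08 for Col5a2 on day 14). Over all probes, the differences of days 2, 7 and 14 correlated with each other at 0.27 to 0.36 and with day 10 at -0.09 to 0.06. By the headers these days have the dye layout of day 10, which the labels contradict for day 2. Days 1 and 4, of the other layout, correlated at 0.18 with each other and at -0.24 to -0.01 with days 2, 7 and 14. With day 10 they correlated at -0.24 and -0.31. The labels and the column headers give these columns alike, so they are called by their names here, a direction drawn from them rests on those names, and means over days are also given without them.

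Prg4 and Ucma were the brightest members in ligament. The probes of Prg4, Ucma and the Sox9 tag were above background in 59 of 59, 56 of 57 and 53 of 57 measured ligament columns. The first Col2a1 probe passed in 41 of 59, Acan in 12 of 50, the Sox9 mRNA probe in 9 of 59 and the second Col2a1 probe in 9 of 56. In ligament, Prg4 ranged from 10.12 to 15.82, with a median of 13.44. Ucma ranged from 6.00 to 15.08, with a median of 12.26. A single column reached the scanner's upper range, unmanipulated replicate 2 for Prg4.

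The stretch that precedes the annotated Ucma start is shown because Ucma had the widest range over ligament columns among the members. It is given from RefSeq (rat build GRCr8, chr17:78212997-78213246, minus strand, 250 bases, read 5′ to 3′ toward the start), and capitals mark the matches to the motifs searched.
Ucma: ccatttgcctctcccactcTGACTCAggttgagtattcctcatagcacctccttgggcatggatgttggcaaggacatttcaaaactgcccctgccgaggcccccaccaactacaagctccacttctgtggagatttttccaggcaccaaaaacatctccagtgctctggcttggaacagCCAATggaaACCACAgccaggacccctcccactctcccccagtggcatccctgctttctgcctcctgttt
The search covered the TATA box (TATAA), the CCAAT box (CCAAT), the core that SOX factors bind (ACAAT), the RUNX core (ACCACA) and the AP-1 site (TGACTCA). Each was sought on both strands, and no matches overlapped. There was 1 match each to the CCAAT box, the RUNX core and the AP-1 site, beginning 70, 61 and 231 bases before the start, and no match to the other motifs. Of 33469 such 250-base stretches in the table, 34.0% hold the CCAAT box, 14.5% the RUNX core, 4.05% the AP-1 site, 24.0% the TATA box and 30.0% the SOX core. A match is a run of letters and not a measured site.

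Prg4 was highest on average in unmanipulated ligament, and it was lower in severed ligament of days 10 and 14. The 5 unmanipulated ligaments stood at 14.81, 15.82, 14.70, 14.88 and 14.57, a mean of 14.96 ± 0.50 (SD, n = 5). Sham ligament of day 1 stood at 14.83, 14.93, 14.54, 15.26 and 14.46 and overlapped them. Severed ligament of day 10 stood at 14.06, 13.60, 13.21, 13.59 and 13, and that of day 14 at 13.48, 11.96, 12.62, 12.91 and 12.35. Every column of both groups lay below every unmanipulated ligament. The difference from unmanipulated ligament was -1.46 ± 0.43 on day 10 (2.76-fold lower, limma adjusted p = 0.0409) and -2.29 ± 0.43 on day 14 (4.9-fold lower, adjusted p = 0.000643), so Prg4 fell on both days. Prg4 was the member called on each of these days, 1 of 7 probes, against 3.27% and 2.65% of all probes.

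The day 10 call was narrow. Its adjusted p ranged from 0.0436 to 0.132 when single columns were left out, and it was lost with a floor of 20 (0.0571), with all values kept (0.186) and without the columns that hold misread stretches (0.0681). The day 14 call was kept when any single column was left out (highest adjusted p = 0.00535). Markers of other tissues moved too. Muscle genes fell on day 10 in 7 of 8 tested, their summed level being 10.79 to 15.50 in the 3 severed day 10 columns that measured all 8 genes and 16.31 to 18.29 in unmanipulated ligament. On day 14, 0 of 8 passed, at 15.41 to 17.82 (4 columns). Of 9 genes of hyaluronan and synovial lining, 0 passed on either day. Their summed level was 13.02 to 13.52 in unmanipulated ligament, 12.97 to 13.45 on day 10 (3 columns) and 12.63 to 13.02 on day 14 (4 columns). The part of these markers in the Prg4 values was not tested.

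The other operated groups also had Prg4 below unmanipulated ligament on average, short of the threshold. Sham ligament of day 4 stood at 13.87, 13.60, 13.65, 13.92 and 12.85, -1.37 ± 0.43 from unmanipulated ligament (adjusted p = 0.179). Severed day 2 stood at 14.07, 13.93, 12.80, 13.84 and 14.13 (-1.20 ± 0.43, adjusted p = 0.107), again with no overlap. Severed day 7, with 2 usable columns at 13.80 and 15.04, overlapped unmanipulated ligament (-0.53 ± 0.57, adjusted p = 1). In the groups of the other dye, severed day 1 stood at 12.94, 12.80, 13.17, 14.97 and 13 and severed day 4 at 13.50, 13.58, 12.89 and 12.82. Sham day 2 spread most, at 12.53, 14.00, 12.54, 10.12 and 14.10. Sham day 7 stood at 13.34, 13.44 and 13.37, sham day 10 at 12.38, 13.37, 12.05, 11.65 and 12.74 and sham day 14 at 12.29, 11.80, 12.87, 13.21 and 12.51. Differences of sham days 2, 10 and 14 from unmanipulated ligament were -2.21 ± 0.70, -2.43 ± 0.70 and -2.33 ± 0.70 (adjusted p = 0.27, 0.399 and 0.257). With no dye term these 3 passed (adjusted p = 0.000298, 0.000114 and 0.000153), in a fit that leaves the dye in the group means. Sham day 2 also passed with the dye of the labels (-2.30, adjusted p = 0.000374). Under 75th percentile scaling sham days 2 and 14 passed (-4.37 and -4.74, adjusted p = 0.0304 and 0.0143), and in the series matrix values sham days 2, 4, 10 and 14 did.

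In the order of group means, unmanipulated ligament was followed by sham day 1, severed day 7 and severed day 2, and sham day 10 was the lowest ligament group, at 12.44 ± 0.66 (SD, n = 5). No 2 neighbouring ligament groups differed by more than the larger of their SDs. The step from the lowest ligament group to the fibroblasts did, at 3.42, their mean being 9.02 ± 0.12 (SD, n = 5).

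**Figure D1:**
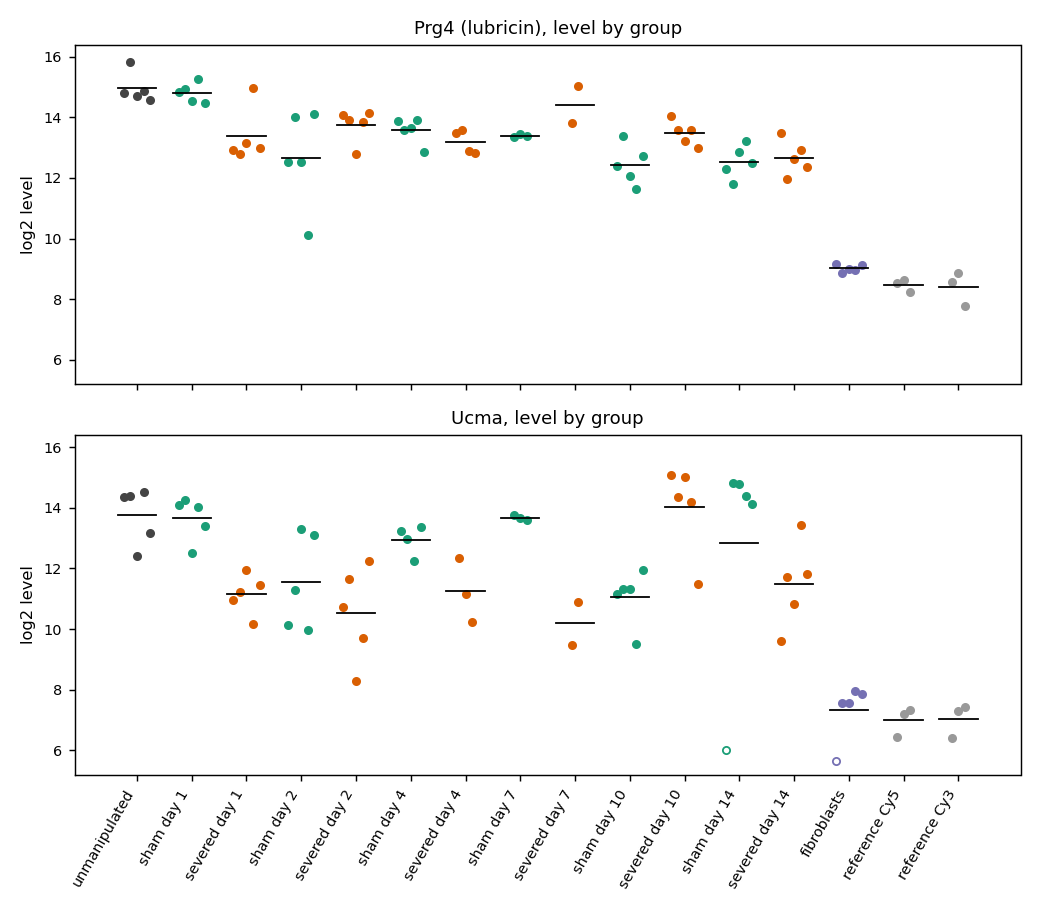
Levels of Prg4 (upper panel) and Ucma (lower panel) as log2 quantile-normalised intensity, 1 point per column in each of 16 groups, with black lines for group means, filled points above background and open points not above it. Every fibroblast and reference column of Prg4 lies at or under 9.15 while the lowest ligament column stands at 10.12, and Ucma in severed ligament lies mostly below sham ligament except on day 10.

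Severed and sham ligament were compared to ask what severing adds to the surgery. Averaged over the 6 days, Prg4 differed by 0.22 ± 0.28 (95% interval -0.34 to 0.78, adjusted p = 1). The early differences were -1.34 ± 0.70 for day 1, 1.01 ± 0.70 for day 2 and -0.30 ± 0.71 for day 4. The later ones were 0.95 ± 0.99, 0.97 ± 0.70 and 0.04 ± 0.70 for days 7, 10 and 14. Without sham day 2 replicate 4, at 10.12, the day 2 difference was 0.38, and without severed day 7 replicate 3 or replicate 1 that of day 7 was 0.33 or 1.58. On day 1, 4 of 5 severed ligaments stood below every sham ligament and replicate 4, at 14.97, stood among them. On day 10 all 5 severed ligaments stood above the sham mean. Without day 10 the mean of the other 5 days was 0.07 ± 0.26. The sign was positive on days 2, 7, 10 and 14, when severed ligament was Cy5 by the headers, and negative on days 1 and 4, when it was Cy3. The operation and the dye cannot be told apart there.

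No member probe passed the threshold in a severed against sham comparison, neither on a day nor in the mean (limma, 0 of 7 each time). At an unadjusted p under 0.05 there was 1, Ucma on day 10. The background was as low: 0% of the 40937 probes tested were called on days 1, 2, 4, 7 and 10 and in the mean, and 0.0122% on day 14, with 140 to 1565 probes at an unadjusted p under 0.05 on the single days and 1066 in the mean.

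**Figure D2:**
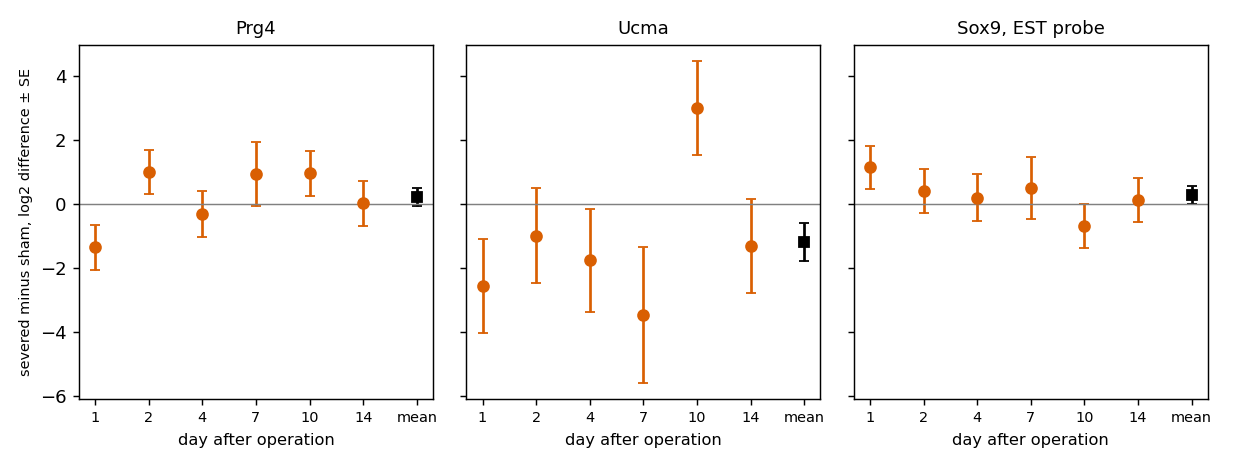
Log2 differences of severed minus sham ligament (points, with SE bars) of Prg4, Ucma and the Sox9 tag probe on each of 6 days and for their mean (black squares). The differences of Prg4 and Sox9 lie between -1.34 and 1.16, and Ucma lies below 0 on 5 days and at 3.01 on day 10.

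Ucma was lower in severed than in sham ligament on 5 of the 6 days on average, but none of these differences passed the threshold. On day 1 the severed ligaments stood at 10.95, 11.23, 11.96, 10.17 and 11.44 and the sham ligaments at 14.08, 14.26, 12.51, 14.04 and 13.41. The groups did not overlap, and the difference was -2.55 ± 1.48 (adjusted p = 1), with 0% of all probes called. On day 2 they stood at 10.74, 11.66, 8.29, 9.70 and 12.26 against 10.13, 11.29, 13.29, 9.97 and 13.09, with wide overlap (-0.98 ± 1.48). On day 4 they stood at 12.36, 11.14 and 10.23 against 13.24, 12.96, 12.24 and 13.37 (-1.75 ± 1.61). The lowest sham column then lay below the highest severed one. On day 7 they stood at 9.48 and 10.90 against 13.75, 13.68 and 13.60, apart from each other, by -3.45 ± 2.12, with the sham columns counted as 1 sample.

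On day 10 the order was the opposite. The columns named severed stood at 15.08, 14.35, 15.00, 14.19 and 11.49 and those named sham at 11.17, 11.32, 11.33, 9.5 and 11.96, a difference of 3.01 ± 1.48 (unadjusted p = 0.0473, adjusted p = 1). Among the columns named severed, 4 lay within or above the range of unmanipulated ligament, and all 5 named sham lay below it. On day 14 the severed ligaments stood at 9.60, 11.71, 10.83, 13.42 and 11.82. The sham ligaments stood at 6.00, 14.83, 14.79, 14.38 and 14.12. Sham replicate 1, at 6.00 and not above background, came from an array on which 43.2% of the stretches were misread. With it the day 14 difference was -1.30 ± 1.48, and without it -3.01. The 4 other sham columns then lay above all 5 severed ones. Severed replicate 1, of the same array and with 42.0% of its stretches misread, was the lowest severed column, at 9.60, and was kept.

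Averaged over the 6 days, Ucma differed by -1.17 ± 0.60 (95% interval -2.38 to 0.04, unadjusted p = 0.0572, adjusted p = 1). Without day 10 the mean was -2.01 ± 0.57 (adjusted p = 0.214, with 0.0342% of all probes called). Without day 10 and without sham day 14 replicate 1 it was -2.35 ± 0.41 (adjusted p = 0.0189, with 0.0366% of all probes called). The day and the column were left out after the values of Ucma had been seen, and severed day 14 replicate 1, of the same array, was kept. This last value is therefore a description and not a test.

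Where the dye cancels, differences of severed from sham ligament can be compared directly between days. From day 7 to day 10 the Ucma difference changed by 6.46 ± 1.98 (adjusted p = 0.356; 0.164% of all probes called), and it was called with the sham columns of day 7 as 3 samples (0.0304). From day 10 to day 14 it changed by -4.32 ± 1.29 (adjusted p = 0.0826; 1.11% of all probes called). Without sham day 14 replicate 1 that change was -6.02 (adjusted p = 0.000174), and with shared arrays as a random block it was -4.32 (adjusted p = 0.0174). Both changes rest on the day 10 columns. Without them, the change from day 7 to day 14 was 2.15 ± 1.98 (adjusted p = 1; 0.0244% of all probes called). From day 1 to day 4 it was 0.79 ± 1.43 (0% called). No member probe was called in any of these 4 changes; 1 had an unadjusted p under 0.05 in each of the first 2, namely Ucma. Prg4 changed by 1.04 ± 0.62 from day 1 to day 4 and by -0.93 ± 0.60 from day 10 to day 14.

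**Figure D3:**
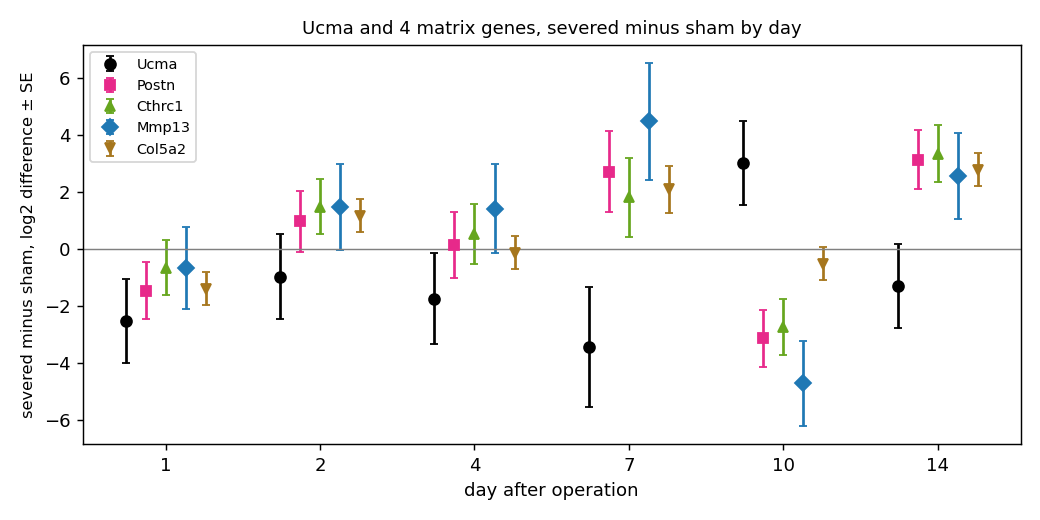
Log2 differences of severed minus sham ligament (points, with SE bars) by day for Ucma and for Postn, Cthrc1, Mmp13 and Col5a2, genes of matrix formation and turnover. On day 10 Ucma stands at 3.01 and the other 4 genes between -4.73 and -0.53, each on the other side of 0 from its values of days 7 and 14.

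Against unmanipulated ligament, at 14.35, 14.40, 12.42, 14.52 and 13.18, Ucma fell in severed ligament of day 2 by 3.24 ± 0.91 (9.47-fold lower, adjusted p = 0.0341). The unmanipulated mean was 13.77 ± 0.93 (SD, n = 5), and all 5 severed columns lay below all 5 unmanipulated ones. It was the 1 member probe of 7 called there, against 3.22% of all probes. This comparison takes the dye of the column headers. With the dye of the labels the difference was -3.29 with an adjusted p of 1, and with all values kept it was -2.73 with an adjusted p of 0.134. Leaving out single columns moved it between -3.67 and -2.68, and the adjusted p between 0.0179 and 0.108. In the same columns Fabp4, a fat cell marker, fell by 3.12 (1 of 5 fat genes called) and 0 of 8 muscle genes passed.

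On later days the Ucma difference from unmanipulated ligament was -3.59 ± 1.20 in severed ligament of day 7 (adjusted p = 0.391), 0.25 ± 0.91 on day 10 and -2.30 ± 0.91 on day 14 (adjusted p = 0.182). Sham ligament stood close to unmanipulated ligament on days 1 (-0.12 ± 0.91), 4 (-0.82 ± 0.96) and 7 (-0.14 ± 1.96). The intervals of these sham differences, -1.94 to 1.71, -2.75 to 1.11 and -4.07 to 3.8, are wide. Sham days 2 and 10 stood lower, at -2.26 ± 1.48 and -2.76 ± 1.48 (adjusted p = 0.641 and 1). Both passed in the series matrix values, at -4.93 and -4.98 (adjusted p = 0.00929 and 0.0145). Severed days 7 and 14 passed there too, at -3.08 and -3.36 (limma adjusted p = 0.0408 and 0.00133). Severed day 7 also passed in 2 alternatives chosen after seeing the data. These were stretches with a correlation under 0.4 set to missing (-3.58, adjusted p = 0.021) and no columns that hold misread stretches (-3.57, adjusted p = 0.012).

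In the order of group means, severed day 10, unmanipulated ligament and sham days 7, 1, 4 and 14 stood at the top, and severed days 2 and 7 at the bottom of the ligament groups. The highest mean was 14.02 ± 1.47 (SD, n = 5) and the lowest 10.19 ± 1.00 (SD, n = 2). As for Prg4, no 2 neighbouring ligament groups differed by more than the larger SD, and the step down to the fibroblasts did, at 2.87. The group means of Prg4 and Ucma correlated at r = 0.29 over the 13 ligament groups, which share arrays and days.

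The share of all probes called against unmanipulated ligament frames these results. It was 0% on days 1 and 4 in severed ligament and 0.276% on day 7. In sham ligament it was 0.00244% on days 1 and 7 and 0% on day 2, and then 0.154%, 0.022% and 0.0147% for days 4, 10 and 14. No member probe was called in these 9 comparisons. Within severed ligament, the members had 0 of 7 calls for day 4 against day 1 (1.04% of all probes called), day 10 against day 7 (1.13%), day 14 against day 7 (1.49%) and day 14 against day 10 (1.35%). Within sham ligament there were also 0 of 7 for day 4 against day 1 (0.274%) and day 14 against day 10 (4.33%). At an unadjusted p under 0.05 these 6 comparisons had 2, 2, 2, 1, 1 and 0 members in that order. Ucma stood 3.84 ± 1.20 higher in severed ligament of day 10 than of day 7, and Prg4 differed by -1.76 ± 0.57 between severed days 14 and 7.

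The Sox9 tag probe stood at 8.66, 8.50, 8.19, 7.82 and 7.72 in unmanipulated ligament. This group had the lowest mean, 8.18 ± 0.41 (SD, n = 5), which was within the spread of severed day 4 (8.21 ± 0.73, n = 3), and single columns of severed day 4 (7.41) and sham day 14 (7.02) lay below all of it. Severed ligament of day 7 stood at 11.02 and 8.83, 1.75 ± 0.55 above it (adjusted p = 0.298), and that of day 2 at 9.19, 8.89, 9.86, 9.14 and 9.81, 1.20 ± 0.42 above it (adjusted p = 0.0976). The 5 severed day 2 columns did not overlap the unmanipulated ones, and neither difference passed the threshold. Under 75th percentile scaling both did, at 2.18 for day 7 and 1.64 for day 2 (adjusted p = 0.0489 and 0.0146), as did day 7 in the series matrix values (3.26, adjusted p = 0.00155). Severed minus sham was 0.29 ± 0.28 over the 6 days (95% interval -0.26 to 0.85) and ranged from -0.67 ± 0.68 on day 10 to 1.16 ± 0.68 on day 1. Without day 10 the mean was 0.48 ± 0.26 (adjusted p = 0.814). The Sox9 mRNA probe was mostly not well above background in ligament, with 5.64 to 9.11 over the ligament columns, where 5.64 is the floor. Its highest columns were severed and sham day 10 replicate 5, at 9.11 and 8.82, which share an array. The mean of severed minus sham was -0.31 ± 0.31. Against unmanipulated ligament this probe passed only in alternatives. Severed day 10, with 2 of 5 columns above background, passed without columns that hold misread stretches (2.24, limma adjusted p = 0.0133). It also passed in the series matrix values (5.18, limma adjusted p = 0.0355). Sham day 14, with 0 columns above background, passed under 75th percentile scaling (1.46, limma adjusted p = 0.0491).

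Acan was above background in both usable columns of severed day 7, at 9.16 and 8.61. Unmanipulated ligament stood at 6.93, 6.91, 7.45, 6.32 and 6.27, with 1 of 5 above background. The difference was 2.11 ± 0.70 (unadjusted p = 0.00415, adjusted p = 0.388). The sham columns of day 7 stood at 7.89, 5.64 and 7.92, also below both severed columns, and severed minus sham was 1.84 ± 1.23. In the scaling to the 75th percentile and in the authors' series matrix values the day 7 difference from unmanipulated ligament did pass, at 2.80 and 4.32 (adjusted p = 0.001 and 0.0389). On day 10, replicate 5 of severed and of sham ligament stood highest, at 9.88 and 8.88, from the array that also carried the highest Sox9 mRNA values. Over the 6 days severed minus sham was 0.59 ± 0.36 (95% interval -0.14 to 1.32). Of all members Acan had the most missing values, 12 columns, from misread stretches.

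Col2a1 varied within groups. The means of its first probe over the 13 ligament groups lay between 7.57 and 8.54. It stood at 6.72, 8.04, 9.94, 7.07 and 7.49 in unmanipulated ligament, where replicate 3 was highest. Sham day 1 stood at 7.32, 7.56, 9.79, 7.25 and 7.13, with replicate 3 far above the others. Severed minus sham was -0.02 ± 0.35 over the 6 days (95% interval -0.71 to 0.67) and between -0.52 ± 0.86 and 0.81 ± 0.88 on single days. The second probe was near background, with ligament group means from 5.66 to 7.21, and severed minus sham was 0.03 ± 0.26. No Col2a1 difference between ligament groups passed the threshold.

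**Figure D4:**
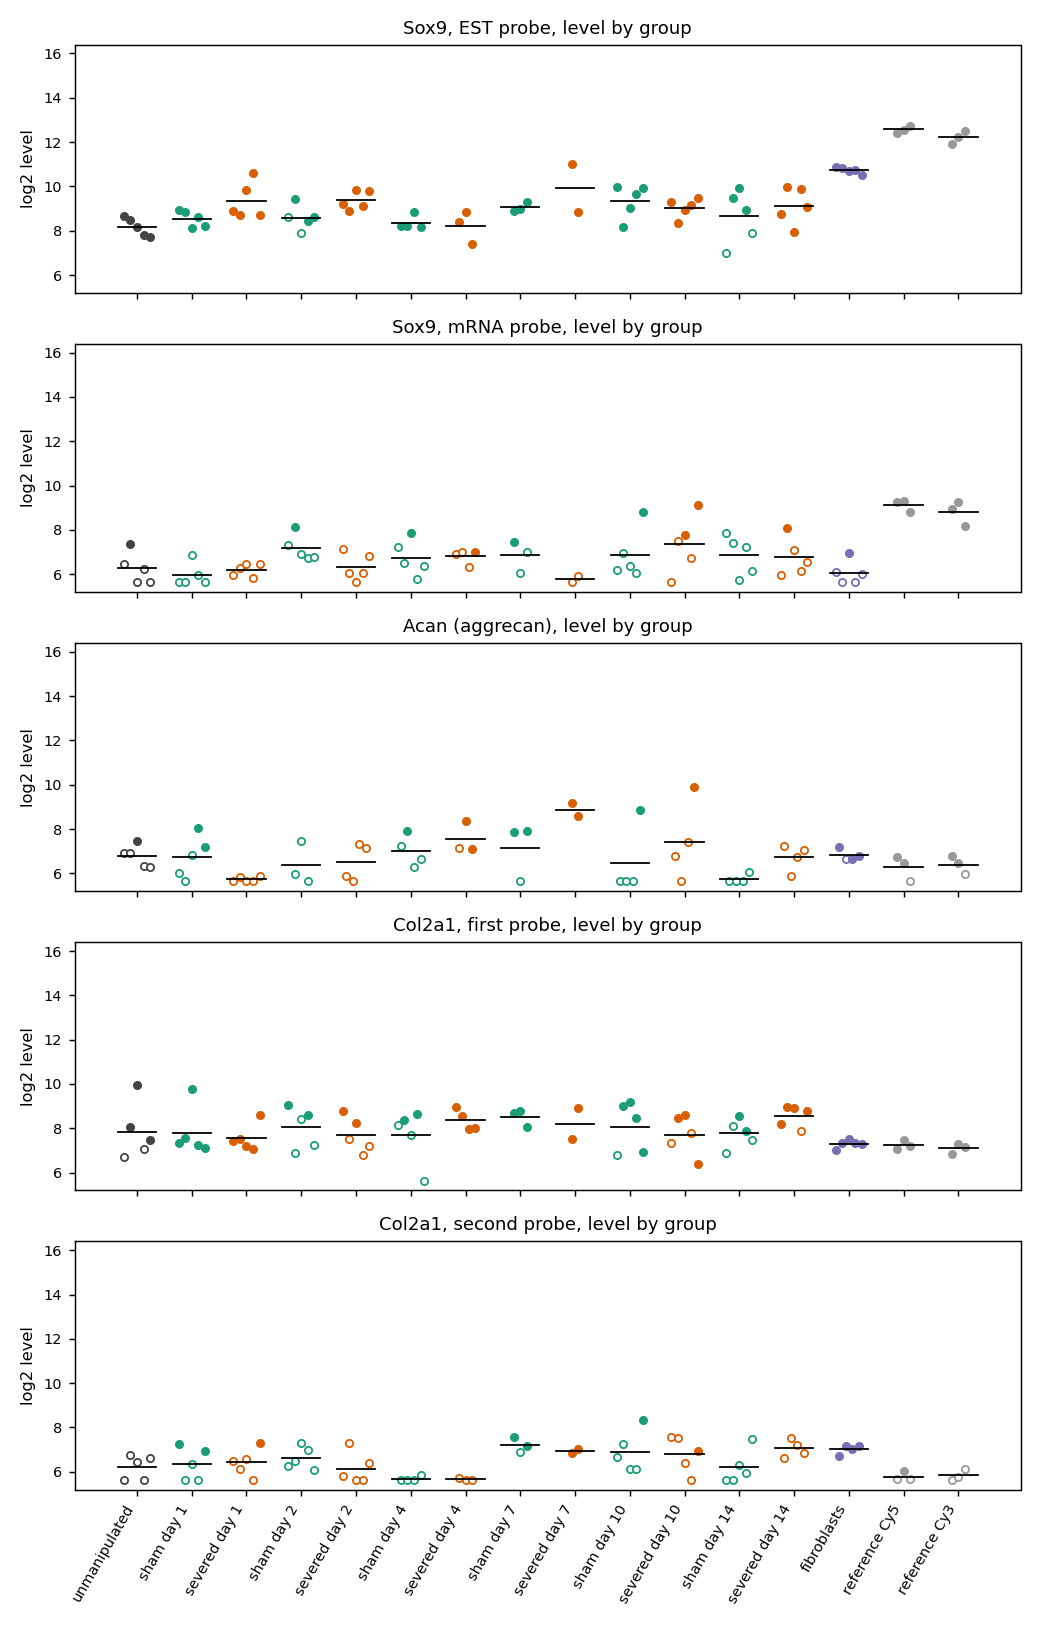
Levels of the Sox9, Acan and Col2a1 probes as log2 quantile-normalised intensity, 1 point per column in each of 16 groups, with black lines for group means, filled points above background and open points not above it. The Sox9 tag probe stands at 10.50 to 10.90 in fibroblasts, and most points of the Sox9 mRNA probe, Acan and the second Col2a1 probe are open.

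Cultured fibroblasts were compared with unmanipulated ligament, both in Cy5. Prg4 stood at 9.15, 8.87, 9.01, 8.96 and 9.13 in the 5 fibroblast columns, far below ligament, and fell by 5.93 ± 0.43 (61-fold lower, adjusted p = 3.79e-17). Ucma stood at 5.64, 7.55, 7.56, 7.96 and 7.87 and fell by 6.46 ± 0.91 (87.9-fold lower, adjusted p = 2.76e-07). Its lowest column, at 5.64 and not above background, came from an array with 40.9% of its stretches misread, and without it the difference was -6.04. The Sox9 tag probe moved the other way. It stood at 10.90, 10.82, 10.72, 10.75 and 10.50, above all unmanipulated ligaments, and rose by 2.56 ± 0.42 (5.9-fold higher, adjusted p = 6.63e-06). The Sox9 mRNA probe was above background in 1 of 5 columns of each group and gives no measure of this difference (-0.20 ± 0.47, adjusted p = 0.881).

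Acan (0.04 ± 0.56, 95% interval -1.10 to 1.17) and the Col2a1 probes (-0.55 ± 0.53 and 0.79 ± 0.41) did not pass between fibroblasts and ligament. In all, 3 of 7 member probes were called, against 10.2% of all probes. Markers of the ligament and of other tissues moved in the same comparison. Among muscle genes 7 of 8 fell (median -7.58), the summed level being 9.85 to 9.92 in the 4 fibroblast columns that measured all 8. So did 3 of 5 fat genes and 3 of 6 ligament genes. The part of the cell make-up in the member values was not tested.

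The reference RNA, a mixture of rat sources, held far less Prg4 and Ucma than ligament and more Sox9. Prg4 stood at 7.77 to 8.85 and Ucma at 6.42 to 7.42 over the 6 reference columns. These columns are repeat measurements of 1 RNA mixture, so the differences from it describe levels and the p-values do not cover variation between mixtures. Unmanipulated ligament was higher by 6.48 ± 0.49 for Prg4 (89.2-fold, adjusted p = 4.54e-17) and by 6.78 ± 1.05 for Ucma (110-fold, adjusted p = 3.79e-07). Both Sox9 probes were lower in ligament than in the reference, the tag probe at -4.40 ± 0.48 (adjusted p = 3.5e-11) and the mRNA probe at -2.84 ± 0.54 (adjusted p = 2.06e-05, with 1 of 5 ligament columns above background). Acan and Col2a1 did not pass (0.48 ± 0.61, 0.61 ± 0.61 and 0.43 ± 0.44). The 4 of 7 probes called compare with 31.5% of all probes, whose median difference was 0.15.

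**Figure D5:**
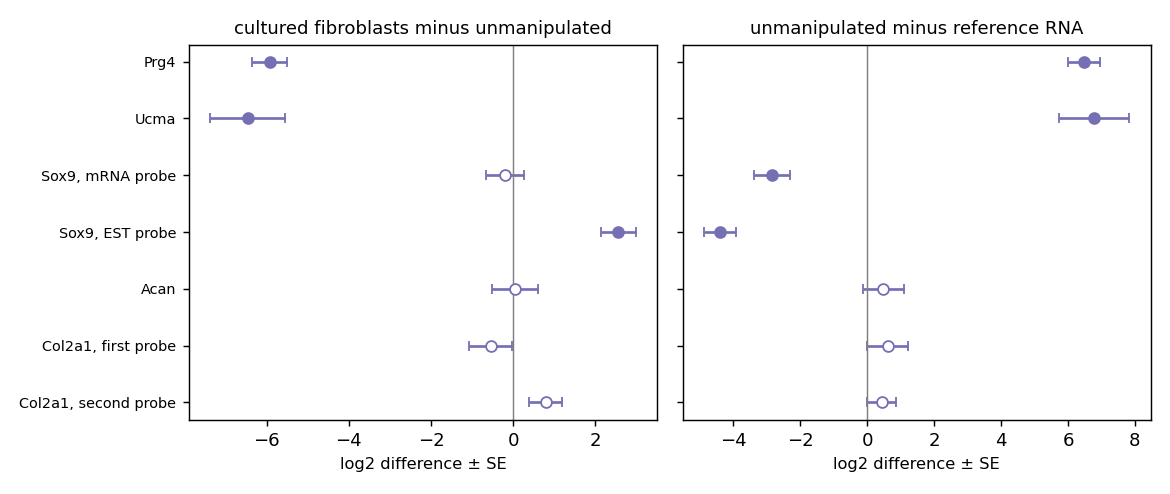
Log2 differences (points, with SE bars) of the 7 member probes for cultured fibroblasts minus unmanipulated ligament and for unmanipulated ligament minus reference RNA, with filled points for an adjusted p under 0.05. Prg4 and Ucma stand at -5.93 and -6.46 on the left and at 6.48 and 6.78 on the right, and the Sox9 tag probe stands at 2.56 and -4.40.

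By their group means over the 13 ligament groups, the named genes most like Prg4 were Zbtb20 (r = 0.93), Pde1a (0.91) and Hipk2 (0.91). Among those most like Ucma were Vit (0.90), which encodes the matrix protein vitrin, and Dapk2 (0.88). Among those most like the Sox9 tag probe were Tead2-ps1 (0.86) and Edar (0.85). Acan was most like Abcc2, Lima1 and Anxa1 (0.86 to 0.87), and the first Col2a1 probe like Cxadrl1 (0.89), C4bpb (0.88) and Scfd1 (0.82). These are among the highest of 14210 candidate genes whose group means spanned at least 1 log2 unit, over 13 points that share arrays and days, and they carry no test. Most of the named genes were dim. The group means of Zbtb20, Pde1a, Hipk2, Tead2-ps1, Edar, Abcc2, Lima1, Cxadrl1 and C4bpb lay between 5.64, the floor, and 7.79. Those of Vit, Dapk2, Anxa1 and Scfd1 were 8.61 or higher.

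Genes that work with the members were described from lists. Of 15 tested cartilage matrix partners, 2 fell and 0 rose in fibroblasts (median -0.21, against -0.01 for all probes), a share near the 10.2% of all probes called. They were Comp, cartilage oligomeric matrix protein, at -7.23 ± 0.52 and Col11a2, a chain of type XI collagen, at -1.48 ± 0.48. Against the reference RNA, 5 of 15 were higher in ligament, led by Comp (7.81 ± 0.56) and Chad, chondroadherin (3.28 ± 0.83), and 2 were lower, Matn1 (-1.65 ± 0.51) and Col9a3 (-1.47 ± 0.46), beside 31.5% of all probes called. In severed ligament of day 14, 2 of 15 rose over unmanipulated ligament, Col11a1 (2.29 ± 0.66, adjusted p = 0.0448) and Matn3, matrilin-3 (2.28 ± 0.65, adjusted p = 0.0372), where 2.65% of all probes were called, and 0 passed on days 2, 7 and 10. The list as a whole did not rise on day 14, with a median of -0.08 and 7 of 15 above 0. Severed minus sham on day 14 had a median of -0.82, with 4 of 15 above 0 and 0 passing. In the mean of severed minus sham 0 of 15 passed (median -0.19, 3 of 15 above 0).

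Of 8 tested partners of SOX9 and chondrocyte regulators, 0 passed in fibroblasts (7 above 0, median 0.58), in severed against unmanipulated ligament on days 2, 7, 10 and 14, or in severed minus sham. Sox6, which acts beside SOX9, and Runx2, the regulator of hypertrophic cartilage and bone, were lower in ligament than in the reference, at -1.62 ± 0.44 and -2.07 ± 0.56. Nkx3-2 and Foxc1 had no named probe.

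Among 8 genes of aggrecan cleavage, Mmp3, stromelysin-1, fell in severed ligament on day 10 (-2.24 ± 0.62, adjusted p = 0.0282) and day 14 (-2.68 ± 0.62, adjusted p = 0.00705), and Mmp13 fell on day 10 (-3.23 ± 0.93, adjusted p = 0.0404). From day 10 to day 14 the severed against sham difference of Mmp13 changed by 7.29 ± 1.39 (adjusted p = 0.00224), the 1 member of the list called there, and this rests on the day 10 columns. In fibroblasts Mmp3, Mmp13 and Adamts9 fell (-3.34, -3.76 and -1.87) and Adamts1 rose (1.82 ± 0.45). The other 4 did not pass. Of all probes, 10.2% were called in fibroblasts, and 3.27% and 2.65% in severed against unmanipulated ligament on days 10 and 14. In the change from day 10 to day 14, 1.11% were called. Among 9 genes of hyaluronan and synovial lining, Clic5 (-3.48 ± 0.64) and Htra4 (-3.18 ± 0.57) fell and Cd55, a surface marker of lining fibroblasts, rose (1.47 ± 0.46) in fibroblasts. Has2, a hyaluronan synthase, was 2.50 ± 0.47 above the reference in ligament. In the mean of severed minus sham, 0 of 9 passed (median -0.11, against 0.01 for all probes).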

How the data were processed

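RNA of 72 samples was measured on 43 Agilent arrays, 29 of which hold 2 samples, 1 in each dye. The intensities were deposited by the authors as the median foreground minus background of each spot and channel, per the file headers. The log2 values of the series matrix table were also deposited by the authors; in each column they equalled log2 of the positive intensities, up to a constant for the column, in at least 97.0% of spots, and they served as an alternative. Stretches of 500 spots whose rank correlation with the median column was under 0.3 were set to missing, and a column with over 80% of such stretches was left out. The rest was quantile normalised, floored at 50 and averaged per probe, and 40937 probes over 100 in at least 3 samples were tested with limma 3.58.1 in R 4.3.3, with group means and a dye term, at a Benjamini-Hochberg adjusted p of 0.05 over all probes. The dye followed the column headers. The labels give 5 animals per group and day without tying columns to animals, so p-values measure the spread between these samples. The fit was tested on simulated data.

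All probes of the members are named, with the 3 genes most like each and list members past the threshold. Some of the genes so chosen are not reported here. The members and lists were chosen with earlier results of these data known. Severed and sham samples of a day that share a replicate number deviated together on days 1, 2, 4, 10 and 14 (correlations 0.129 to 0.81) and not on day 7 (-0.12 and -0.102). On those 5 days same-numbered samples shared an array, except replicates 4 and 5 of day 4. A pairing of the samples and the shared array cannot be told apart there. The alternatives were keeping all values, another scaling, floor, filter, dye assignment or source of values, blocks for replicate or array, and leaving out single columns. RefSeq upstream sequences were found for 3 of the 5 genes. Python 3.11.15 was used for tables.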

Additional observations from a re-analysis of the deposited data

Results flagged for a closer look

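Of 79 combinations of probe and group with enough samples, 13 held a sample far from the others of its group, by a criterion set to pick about 1 in 20 groups by chance. For Prg4, unmanipulated replicate 2 stood high at 15.82, severed day 1 replicate 4 high at 14.97 and severed day 2 replicate 3 low at 12.80. For Ucma, severed day 10 replicate 5 stood low at 11.49, sham day 14 replicate 1 at 6.00 and fibroblast replicate 1 at 5.64. The Sox9 mRNA probe was high in sham day 1 replicate 3 (6.86) and low in severed day 4 replicate 3 (6.32), and the tag probe was high in sham day 4 replicate 4 (8.84). Acan was high in sham day 10 replicate 5 (8.88) and sham day 14 replicate 5 (6.05), where the other samples stood at the floor. Col2a1 was high in sham day 1 replicate 3 (9.79, first probe) and sham day 4 replicate 5 (5.85, second probe, the others at the floor).

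In 10 pairs of days, every severed sample lay above the sham mean on one day and below it on the other. For Ucma the differences between days were 5.56 (day 10 against day 1), 4.76 (day 10 against day 4) and 6.46 (day 10 against day 7). For Prg4 they were 1.31, 1.25 and 1.27 (days 2, 7 and 10 against day 4). For Acan they were 1.52, 2.96 and 2.21 (days 4, 7 and 14 against day 1), and for the second Col2a1 probe 1.10 (day 14 against day 7). By limma, 3 of them missed the threshold, at an adjusted p of 0.356 for Ucma between days 10 and 7, 1 for Acan between days 4 and 1, and 1 for Col2a1. For the others the difference was not tested. By the headers, days 1 and 4 have the other dye layout than days 2, 7, 10 and 14. In pairs that cross these layouts, the operation and the dye cannot be told apart. Acan in severed days 1 and 14 and the second Col2a1 probe in severed day 14 had 0 columns above background.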

How the results depend on the processing

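The fibroblast and reference calls and the Prg4 call of severed day 14 kept their direction and threshold under every alternative run. The Ucma call of severed day 2 was lost with all values kept (-2.73) and with the dyes of the labels (-3.29), and ranged from -3.67 to -2.68 without single columns, 5 of which ended it (unmanipulated replicates 1, 2 and 4, severed replicates 3 and 4). The Prg4 call of severed day 10 was lost with all values kept (-1.36), a floor of 20 (-1.46) and, an alternative chosen after seeing the data, without columns that hold misread stretches (-1.79). It ranged from -1.60 to -1.25 without single columns, 7 of which ended it (unmanipulated replicates 1 to 4, severed replicates 3 to 5). Severed minus sham turned sign with all values kept for Prg4 (mean -0.08, day 7 -0.10) and the Sox9 tag (-0.18), without misread columns for Prg4 on days 10 (-0.04) and 14 (-0.23), and under 75th percentile scaling for Ucma on days 2 (0.50) and 14 (0.02). That scaling moved the median of all probes by up to -0.65. Prg4 on day 14 ranged from -0.16 to 0.22 without single columns, on day 2 from 0.38 to 1.37 and on day 7 from 0.33 to 1.58. The Ucma change from day 7 to 10 passed with the sham columns as 3 samples (6.46) and with stretches under 0.4 missing (6.48, chosen after seeing the data). That from day 10 to 14 passed with the latter (-5.56), the series matrix (-5.01) and arrays as a block (-4.32), and ranged from -6.02 to -3.81 without single columns. The Ucma mean passed at -2.35 without day 10 and 1 sham column, both chosen after seeing the data. Member calls in changes between days, 0 in the report, were 1 with the sham columns as 3 samples, the series matrix or the array block, and 2 with stretches under 0.4 missing. Between days within severed or sham ligament, also 0, they were 1 with all values kept, 2 under 75th percentile scaling or with stretches under 0.4 missing, 3 without misread columns and 8 in the series matrix. Those against unmanipulated ligament, 3 in the report, were 1 with all values kept, 9 under 75th percentile scaling, 6 with no dye term and 15 in the series matrix. Counts of all probes moved by over 1.5 times in most comparisons, such as 1 to 8596 around 1319 for severed day 2, 414 to 9641 around 1340 for severed day 10, 172 to 7026 around 1085 for severed day 14 and 0 to 1294 around 5 for severed minus sham on day 14. With the replicate block for samples of the same day and number, the mean of severed minus sham was -1.21 for Ucma, 0.24 for Prg4 and 0.31 for the Sox9 tag. The block fit held only severed minus sham, by day and in the mean, where no member was called with or without it. The cause of these shifts was not tested. Signal over background limits Acan, the Sox9 mRNA probe and the second Col2a1 probe.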

Other observations

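Genes of the ligament itself and of fat and bone also separated cultured fibroblasts from unmanipulated ligament. Of 6 tested ligament and tendon genes, 3 fell in fibroblasts: Tnmd, which encodes tenomodulin (-6.52 ± 0.58), Thbs4, a thrombospondin of tendon matrix (-5.37 ± 0.33), and Fmod, which encodes fibromodulin (-5.20 ± 0.50). Of 5 fat genes, 3 fell, namely Cfd (-7.04 ± 0.45), Fabp4 (-4.58 ± 0.50) and Adipoq (-3.59 ± 0.87). Of 5 bone genes, Bglap, which encodes osteocalcin (-3.18 ± 0.81), and Ibsp, bone sialoprotein (-2.10 ± 0.65), fell. In this comparison 10.2% of all probes were called. Bglap also fell in the columns named severed day 10 (-2.88 ± 0.81, limma adjusted p = 0.0319). It was the 1 of 5 bone genes called there, against 3.27% of all probes.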
